A study of Homo sapiens with 2 samples.

Results

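The serpins are a gene family of protease inhibitors and their non-inhibitory relatives. Every protein-coding gene of the GRCh38 RefSeq gene table whose symbol starts with SERPIN was taken, which gave 34 genes of 20037, and 33 of them are described here. The letter after SERPIN is the clade, a branch of the family tree, and of the 33 genes 10 belonged to clade A, 13 to clade B and 10 to clades C to I. RUNX1 occupancy around them was read from a ChIPseq experiment (chromatin immunoprecipitation followed by sequencing) in MCF10A, an established non-tumorigenic human mammary epithelial line. Both libraries, 1 of anti-RUNX1 immunoprecipitate and 1 of input DNA that saw no antibody, came from RUNX1-deleted MCF10A cells transduced with lentiviruses that express RUNX1 upon induction. Doxycycline, the inducer, was present at 1 µg/ml for the last 24 h. The occupancy is therefore that of introduced RUNX1, and the study's methods state that endogenous RUNX1 had shown little binding in a ChIPseq of its own.

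A typical serpin presents an exposed reactive centre loop as bait. A protease that cuts the loop stays bound to it, is dragged across the serpin and is left in a distorted, inactive state. Most clade A serpins are secreted into plasma by the liver, and some, such as SERPINA6 and SERPINA7, carry hormones in place of inhibiting a protease. Clade B serpins lack a classical signal peptide and act mostly inside cells, and many are made by stratified epithelia, mammary myoepithelium and leukocytes. The transcription factor RUNX1 contacts DNA as a heterodimer with CBFB, with TGTGGT and the related TGCGGT as its usual core letters.

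The deposited list held 13591 RUNX1 peaks, called on 80338845 kept ChIP tags against 87410774 kept input tags. With 1 library of each kind no value has a replicate, no test between samples was possible, and the intervals given are exact 95% intervals that cover counting error only. The lowest peak of the list had a pileup (extended ChIP tags over the summit) of 10, so a gene without a peak is one where nothing passed the authors' q limit of 0.05 at this depth. Peak positions carry no information on RNA, so neither expression of the serpins nor cell type markers nor the deletion of RUNX1 could be checked here.

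Promoter sequences are shown for 5 serpins to show RUNX letters before their start sites, beside which the distance to the nearest RUNX1 summit is then given. Each is the 250 bases before a RefSeq start site in GRCh38.p14, read 5′ to 3′ on the strand of the gene. Capitals mark TGTGGT or TGCGGT, or either of them read on the opposite strand. Of the serpins described, SERPINB6 has the nearest peak. SERPINB13, SERPINB4 and SERPINB3 lie in the chromosome 18 run without peaks, and SERPINA11 lies in the chromosome 14 run. The windows are chr6:2971568-2971817 on the minus strand for SERPINB6, chr18:63587093-63587342 on the plus strand for SERPINB13, chr18:63644257-63644506 and chr18:63661894-63662143 on the minus strand for SERPINB4 and SERPINB3, and chr14:94452801-94453050 on the minus strand for SERPINA11.
SERPINB6: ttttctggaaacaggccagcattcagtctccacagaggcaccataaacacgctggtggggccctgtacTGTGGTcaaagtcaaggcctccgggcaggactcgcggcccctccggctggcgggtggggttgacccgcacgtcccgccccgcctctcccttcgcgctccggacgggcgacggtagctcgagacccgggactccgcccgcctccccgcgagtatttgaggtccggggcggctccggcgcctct
SERPINB13: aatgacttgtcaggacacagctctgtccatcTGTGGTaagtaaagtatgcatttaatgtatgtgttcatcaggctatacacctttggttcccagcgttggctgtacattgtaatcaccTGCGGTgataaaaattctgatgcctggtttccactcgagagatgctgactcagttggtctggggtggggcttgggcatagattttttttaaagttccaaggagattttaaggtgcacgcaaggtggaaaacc
SERPINB4: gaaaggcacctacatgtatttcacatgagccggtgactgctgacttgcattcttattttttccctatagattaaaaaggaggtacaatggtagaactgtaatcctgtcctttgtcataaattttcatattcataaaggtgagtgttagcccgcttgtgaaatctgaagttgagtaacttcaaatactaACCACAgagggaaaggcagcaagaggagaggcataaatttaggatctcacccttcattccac
SERPINB3: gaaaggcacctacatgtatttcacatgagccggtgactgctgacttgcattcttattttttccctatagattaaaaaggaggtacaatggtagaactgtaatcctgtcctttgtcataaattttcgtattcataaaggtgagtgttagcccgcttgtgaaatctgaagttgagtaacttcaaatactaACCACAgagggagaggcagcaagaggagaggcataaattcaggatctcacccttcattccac
SERPINA11: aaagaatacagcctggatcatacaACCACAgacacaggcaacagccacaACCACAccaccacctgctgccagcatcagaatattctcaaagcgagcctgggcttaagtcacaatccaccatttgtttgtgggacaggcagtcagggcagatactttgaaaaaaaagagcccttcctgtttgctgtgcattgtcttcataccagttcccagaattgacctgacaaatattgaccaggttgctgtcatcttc

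The SERPINB6 sequence holds 1 match, and the nearest summit lay 2.29 kb upstream of its start site. SERPINB13 and SERPINA11 hold 2 matches each, and their start sites lay 178 kb and 38.4 kb from the nearest summit. SERPINB4 and SERPINB3, neighbouring genes for the squamous cell carcinoma antigens, share 247 of the 250 bases (98.8%), and both have TGTGGT on the opposite strand, starting 62 bases before the start site. Their start sites lay 235 kb and 252 kb from the nearest summit. The sources used here do not give how reads that map equally well to such near-identical copies were treated, so the absence of a peak at this pair is less certain than at the other serpins.

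None of the 33 serpin genes had a RUNX1 summit inside it. The count was 0 of 33 (0%, interval 0 to 10.6%), whereas 18.7% of all protein-coding genes held a summit. Serpin genes are shorter than most (median 15.5 kb, range 6.29 to 89.8 kb, against 24.1 kb over all protein-coding genes), and longer genes hold more summits. When each serpin was given the share of genes with a summit in its own length decile, the shares summed to 3.86 genes, or 11.7%. The observed 0 was lower than the length of the genes alone would give, and the interval of the observed share ended just below that value.

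With 5 kb added on either side, 2 of 33 serpins had a peak (6.06%, interval 0.743 to 20.2%), against 24.8% of all protein-coding genes and 6.04 serpins (18.3%) given by length. These were SERPINB6 and SERPINF1. Within 50 kb, 10 of 33 had a peak (30.3%, interval 15.6 to 48.7%), against 52.1% of all genes and 16.5 serpins (49.9%) given by length. The share given by length lay inside the interval at 5 kb and just above it at 50 kb. Fewer of the 33 serpins had a peak than length gives at each of the 3 reaches, which are nested counts and not separate results. These margins are narrow, however, since 1 more gene with a peak would bring the share given by length inside the interval at every reach, and genes of a run share their surroundings and do not count as independent.

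**Figure D1:**
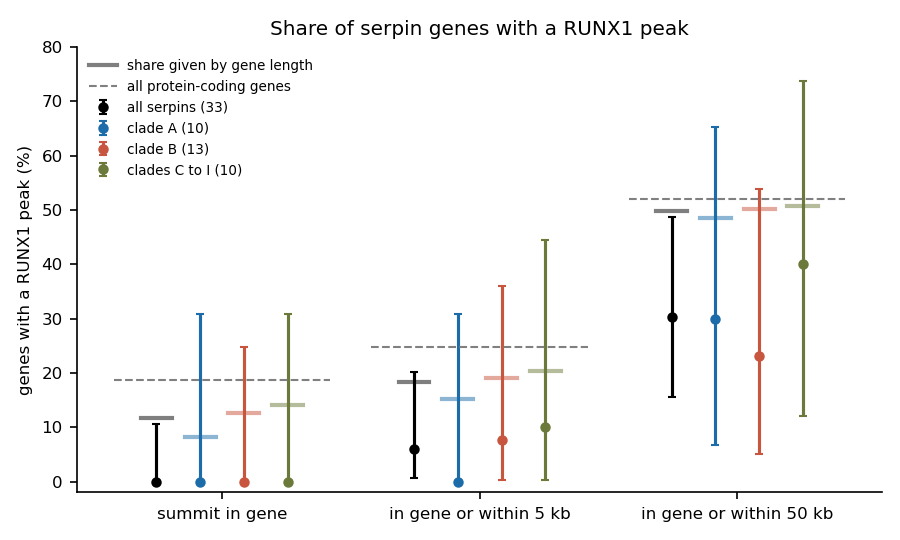
The share of serpin genes with a RUNX1 summit in the gene, within 5 kb and within 50 kb (y axis, percent), for the 33 serpins and for clades A, B and C to I. Points are shares with exact 95% intervals, short thick lines are the shares given by gene length and dashed lines are the shares of all protein-coding genes (18.7%, 24.8% and 52.1%); every clade sits at 0 for summits in the gene.

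The distance to the nearest summit gave a continuous view of the same data. It ran from 2.06 kb at SERPINB6 to 1017 kb at SERPINA7, with a median of 115 kb, against a median of 45.5 kb over all protein-coding genes. Of the 33 serpins, 23 were farther from a summit than the median gene of their length decile and 10 were nearer. The median was 106 kb in clade A, 228 kb in clade B and 92.5 kb in clades C to I. In clade B, the 3 genes on chromosome 6 lay between 2.06 and 21.9 kb from a summit and the 10 genes on chromosome 18 between 67.6 and 561 kb. This contrast was picked after the values were seen. The chromosome 18 distances were all to the same summit, so they are not separate values. The clade B median and part of the 23 farther serpins rest on that summit too.

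**Figure D2:**
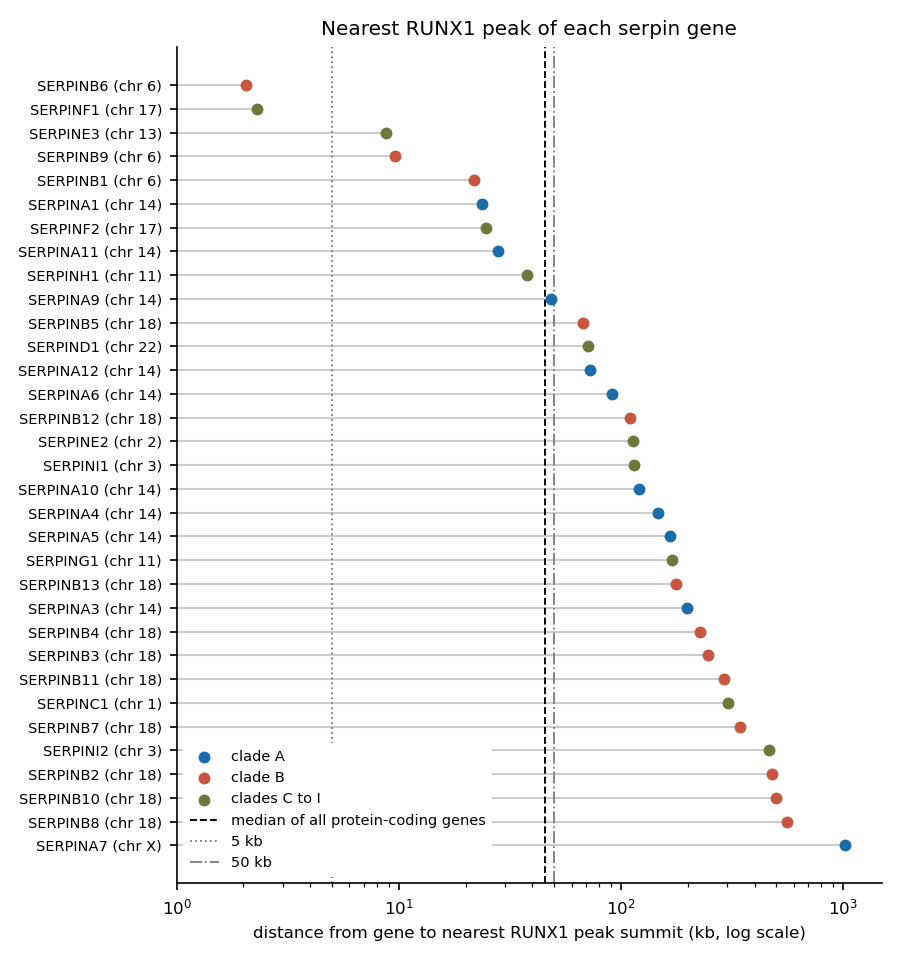
The distance from each of the 33 serpin genes to its nearest RUNX1 summit (x axis, kb, log scale), ordered by distance and coloured by clade, with lines at 5 kb, 50 kb and the median of all protein-coding genes (45.5 kb). SERPINB6 and SERPINF1 lie within 5 kb, the 10 chromosome 18 clade B genes all lie beyond 50 kb, and SERPINA7 on chromosome X is the farthest at 1017 kb.

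SERPINB6, an intracellular inhibitor of trypsin-like proteases and cathepsin G, had its peak at chr6:2973800-2973977, in no annotated gene, with the summit 2.06 kb upstream of the gene, which is on the minus strand. Its pileup was 19 tags (interval 11.4 to 29.7), its fold enrichment over the local background was 6.25 and its −log10 q was 8.48. The input level, meaning the local background relative to the genome-wide one, was 1, the lowest value possible. Of all peaks in the list, 39.9% had a higher pileup, so this peak was of middling height.

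SERPINF1 encodes pigment epithelium-derived factor, a secreted anti-angiogenic serpin that inhibits no protease. Its peak at chr17:1779849-1779960 lay inside the neighbouring gene SMYD4, with the summit 2.30 kb beyond the higher-coordinate end of SERPINF1. It had 12 tags (interval 6.20 to 21.0, which overlaps that of the SERPINB6 peak), a fold enrichment of 4.06 and a −log10 q of 2.85, at an input level of 1. A higher pileup was found at 94.2% of all peaks. The same summit lay 24.6 kb from SERPINF2, the gene for the plasmin inhibitor of plasma, and was its only summit within 50 kb.

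Between 5 and 50 kb, SERPINE3 had 2 peaks upstream, at 8.76 and 9.90 kb, with 16 and 15 tags and fold enrichments of 3.64 and 3.42, both at an input level of 1.67, whose part in the calls was not tested. SERPINH1 encodes the collagen chaperone of the endoplasmic reticulum, another serpin without inhibitory activity. It had 4 peaks between 38.0 and 45.1 kb upstream, all inside the neighbouring gene GDPD5. The farthest of these, at chr11:75516978-75517192, was the tallest peak within 50 kb of any of the serpins described. It had 22 tags (interval 13.8 to 33.3), a fold enrichment of 7.09 and a −log10 q of 11.1, at an input level of 1.02. The nearest had 17 tags, a fold enrichment of 3.22 and the highest input level near any of the serpins described, 2.09.

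In all, 11 distinct peaks lay within 50 kb of these serpins, and 5 of them were in no annotated gene. Their pileups ran from 12 to 22 tags with a median of 16, against 18 over all peaks, and their fold enrichments from 3.22 to 7.09 with a median of 4.52, against 5.06. The pileup of 8 and the fold enrichment of 7 of the 11 were below the median of the list. Only 4 of the 11 reached a fold enrichment of 5. The input level was under 1.1 at 7 of them and between 1.6 and 1.7 at the 2 peaks of SERPINE3. Peaks near these serpins were therefore of ordinary or lower height, and 25.6% of all peaks stood higher than the tallest of them.

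**Figure D3:**
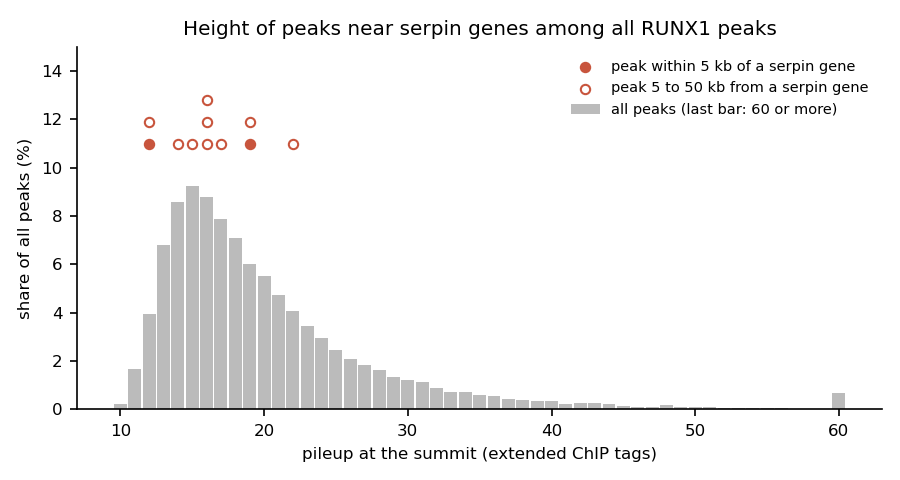
Pileup at the summit (x axis, tags) of all 13591 RUNX1 peaks as grey bars (y axis, percent of peaks, the last bar holding 60 tags or more), with the 11 peaks within 50 kb of the serpins as circles placed above the bars. Filled circles are the 2 peaks within 5 kb, at 12 and 19 tags, and no circle lies above 22 tags.

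Many serpin genes lie in runs. On chromosome 18, 10 clade B genes stand together, with 1 other protein-coding gene among them, in the order SERPINB5, SERPINB12, SERPINB13, SERPINB4, SERPINB3, SERPINB11, SERPINB7, SERPINB2, SERPINB10 and SERPINB8. Among them SERPINB5 encodes maspin, known from mammary epithelium, and SERPINB2 encodes an inhibitor of urokinase. SERPINB7 and SERPINB13 are known from keratinocytes. From 5 kb before the first to 5 kb after the last gene, chr18:63471958-64024779, the run covers 553 kb and held 0 peaks, with a two-sided interval of 0 to 6.67 per Mb. The limit of 3 counts that is usual for a count of 0 comes to 5.43 per Mb. From gene to nearest summit the distance was 67.6 kb at SERPINB5, 110 kb at SERPINB12, 178 kb at SERPINB13, 228 kb at SERPINB4, 246 kb at SERPINB3, 293 kb at SERPINB11, 344 kb at SERPINB7, 478 kb at SERPINB2, 499 kb at SERPINB10 and 561 kb at SERPINB8. The same summit, below SERPINB5, was the nearest for every one of these genes. None of the 10 genes had a peak within 50 kb, where gene length alone gives 5.05 genes. With 50 kb on either side the 643 kb still held 0 peaks.

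The run lay in a long stretch without summits. The last summit before it, at position 63409407 inside VPS4B, was 67.6 kb below SERPINB5, with 23 tags and an input level of 1.67. The first summit after it, with 13 tags, was 665 kb above SERPINB8, which left 1.28 Mb without a summit. Of the 13567 gaps between neighbouring summits, 338 (2.49%) were at least this long, and the median gap was 77.6 kb. This is a share of gaps and not of the genome. A given place falls in such a gap more often, since long gaps cover more bases. Cutting the genome into windows of 553 kb gave 4055 with at least 1 protein-coding gene, of which 20.1% held 0 peaks. Among the 511 windows with at least 10 genes, 54 (10.6%) held none. A window of this length and gene number without a peak was thus not rare in the list. The counting interval of the run also included the density of chromosome 18, 3.15 per Mb, and of chromosomes 1 to 22 and X together, 4.49 per Mb.

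On chromosome 14, 9 clade A genes stand together, among them SERPINA1, the plasma inhibitor of neutrophil elastase, SERPINA3, the inhibitor of cathepsin G and chymase, and SERPINA6, the carrier of cortisol. With 5 kb on either side, chr14:94275460-94629053, the run covers 354 kb and held 1 peak, or 2.83 per Mb (interval 0.0716 to 15.8). This peak, at chr14:94414298-94414522, lay between SERPINA1 and SERPINA11 in no annotated gene. It had 16 tags (interval 9.15 to 26.0), a fold enrichment of 5.12, a −log10 q of 5.62 and an input level of 1.05. It was 23.7 kb upstream of SERPINA1, 28.1 kb from SERPINA11 and 48.4 kb from SERPINA9, and made up all 3 clade A genes with a peak within 50 kb, where length gives 4.86. These 3 genes therefore rest on 1 peak. The same summit was the nearest to the other 6 genes, at 72.9 kb from SERPINA12, 91.0 kb from SERPINA6, 121 kb from SERPINA10, 147 kb from SERPINA4, the kallikrein inhibitor of plasma, 167 kb from SERPINA5, the inhibitor of activated protein C, and 198 kb from SERPINA3. The next summits were 395 kb below the run, a tall one of 74 tags (interval 58.1 to 92.9) and 20.5-fold enrichment, and 295 kb above it, with 19 tags. The run's density was close to that of chromosome 14, 3.39 per Mb, and 33.6% of the 470 windows of 354 kb with at least 9 genes held 0 or 1 peak.

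The comparison of the chromosome 18 and chromosome 14 runs was 0 peaks against 1. The exact interval of the ratio of their densities was 0 to 24.9, so these counts cannot show whether the runs differ. The input level cannot be set beside both, because the list gives it only at peaks and the chromosome 18 run has none.

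The 3 clade B genes on chromosome 6 were a contrast that was picked after their values were seen. SERPINB1 inhibits neutrophil elastase, SERPINB9 inhibits granzyme B, and SERPINB6 is described above. All 3 had a summit within 50 kb, where length gives 1.47, although SERPINB6 was the only one within 5 kb. The SERPINB9 peak, at chr6:2877506-2877695, lay 9.63 kb downstream of the gene and 35.8 kb from SERPINB1, with 19 tags (interval 11.4 to 29.7), a fold enrichment of 6.19, a −log10 q of 8.41 and an input level under 1.1, nearly the values of the SERPINB6 peak. The SERPINB1 peak lay 21.9 kb downstream, with 16 tags and a fold enrichment of 4.52. With 5 kb on either side the 149 kb held 2 peaks, or 13.4 per Mb (interval 1.62 to 48.3), and with 50 kb the 239 kb held 3. The exact interval of the ratio of the chromosome 18 run to this run was 0 to 1.44 with 5 kb and 0 to 0.901 with 50 kb. The difference between the clade B runs thus depended on the reach, on a choice made with the values known.

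**Figure D4:**
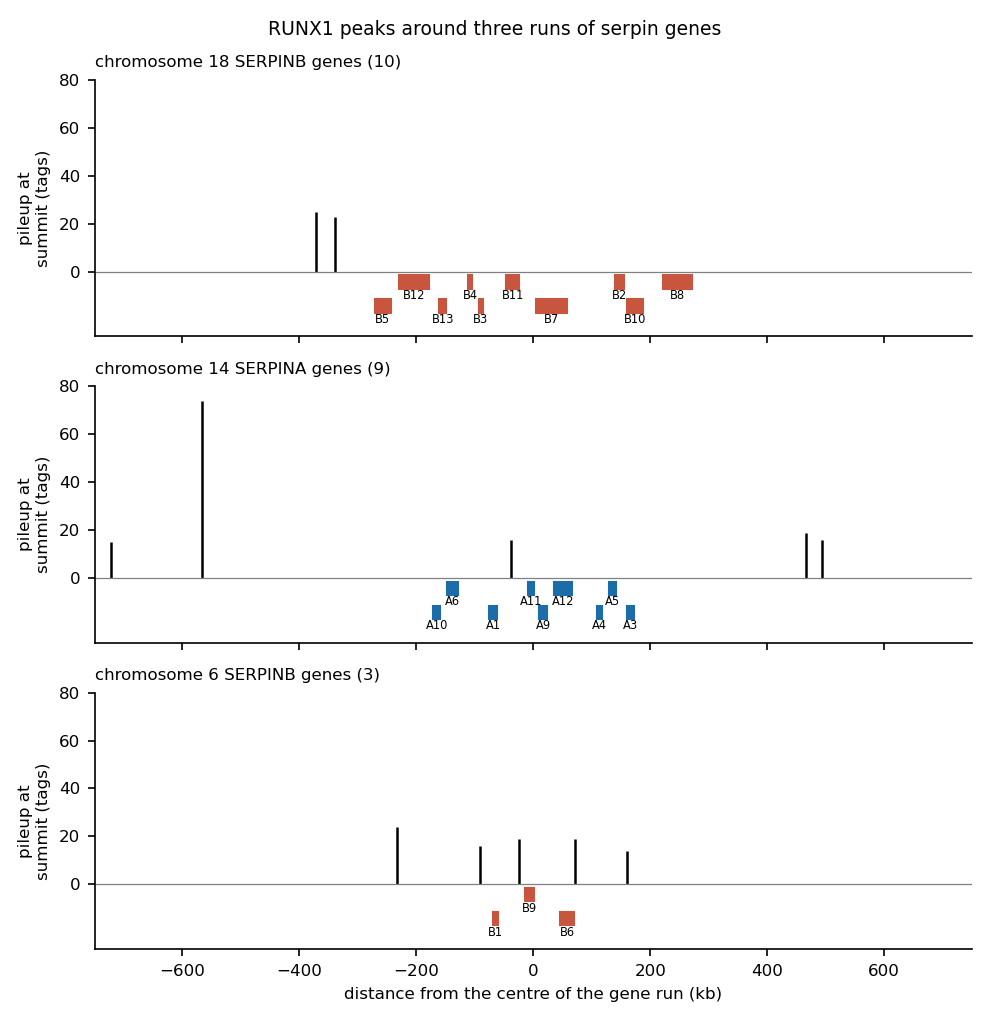
RUNX1 summits (vertical lines, height in tags on the y axis) and serpin genes (boxes) around the chromosome 18 SERPINB, chromosome 14 SERPINA and chromosome 6 SERPINB runs, by distance from the centre of each run (x axis, kb). No line stands over the 10 chromosome 18 genes, 1 stands among the 9 chromosome 14 genes (16 tags), and lines of 16, 19 and 19 tags stand beside the 3 chromosome 6 genes.

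The serpins outside these runs were spread over many chromosomes, and most lacked a near peak. SERPIND1, the heparin-dependent thrombin inhibitor, was 71.2 kb from a summit. SERPINE2, a cell-surface inhibitor of thrombin and urokinase, was 114 kb away and SERPINI1, the neuronal inhibitor of tissue plasminogen activator, 115 kb. SERPING1, the inhibitor of the first complement proteases, was 170 kb from a summit. SERPINC1, the antithrombin of plasma, was 305 kb away and SERPINI2 463 kb. SERPINA7, the thyroxine carrier, was the farthest of the serpins described.

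RefSeq promoter windows, 250 bases before to 50 after a start site, were matched for 27 of the 33 serpins, and SERPINB10, SERPINB11, SERPINC1, SERPINF1, SERPINF2 and SERPING1 were not matched. TGTGGT or TGCGGT was found on either strand in 12 of the 27 genes (44.4%, interval 25.5 to 64.7%), against 3745 of 15843 genes (23.6%) over all matched protein-coding genes. Per window the shares were 29.3% of 41 serpin windows and 19.0% of all 22199. Serpin genes had more windows each, 1.52 against 1.40 over all matched genes. Clade A had the letters in 6 of 10 genes, namely SERPINA1, SERPINA5, SERPINA6, SERPINA9, SERPINA11 and SERPINA12. Clade B had them in 5 of 11, SERPINB3, SERPINB4, SERPINB6, SERPINB9 and SERPINB13, and SERPINE3 was the remaining gene. SERPINB3 and SERPINB4 are counted separately although their promoters are 98.8% identical and hold the same match. The interval takes all genes as independent, so it is too narrow. Serpin windows were also lower in G and C, with a median of 52.3% against 62.3%, and the part of base composition in the share of letters was not tested.

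None of the 41 serpin windows overlapped a RUNX1 peak, and 415 of the 22199 windows (1.87%) did. Over all protein-coding genes, 30.1% of those with the letters and 23.5% of those without had a summit in the gene or within 5 kb. Among the 12 serpins with the letters, SERPINB6 was the only one with a summit that near. At so low a share over all windows, 0 of 41 says little about serpin promoters in particular. A match of 6 letters is a description and not a binding site.

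The proteases that serpins inhibit and inhibitors of other families were counted in the same way, in 7 lists of 75 genes drawn from general knowledge. Of these, 19 (25.3%, interval 16.0 to 36.7%) had a summit in the gene or within 5 kb, close to the 24.8% of all protein-coding genes, while their lengths give 13.1. Within 50 kb, 44 of 75 had a summit, beside 52.1% of all genes. By list these were 13 of 16 kallikreins, 11 of 16 inhibitors of other families, 5 of 8 membrane and secretory pathway proteases, 3 of 8 lysosomal proteases, 5 of 11 clotting and complement proteases, 5 of 10 leukocyte, mast cell and pancreatic proteases and 2 of 6 plasminogen system genes. Neighbouring genes, such as KLK6, KLK9, KLK10 and KLK11, can share a summit at this reach, so these counts are not of separate peaks. Distinct peaks and shares given by length were not worked out for the lists at 50 kb. At 5 kb the interval of each list included the share of all protein-coding genes, so no list is shown to stand apart from it. The share given by length also lay inside each interval, except for inhibitors of other families, where it lay just below. The serpin interval at this reach instead excluded the share of all protein-coding genes and included the share given by length.

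Inhibitors of other families had a peak at 7 of 16 genes (43.8%, interval 19.8 to 70.1%), where length gives 3.12. The tallest was at SPINT1, the Kunitz-type inhibitor of matriptase and of hepatocyte growth factor activator, with 30 tags (interval 20.2 to 42.8) and a fold enrichment of 9.68, 3.97 kb from the gene. The others were SPINT2, the leukocyte protease inhibitor SLPI, and the cystatins CST3, CST6, CSTA and CSTB. The peaks at SPINT2 and SLPI each had a fold enrichment of 3.04, a −log10 q of 1.96 and an input level of 2.09. At the stricter q limit of 0.01 both were lost, while the peaks at SPINT1 and the cystatins remained. The share and interval of this list therefore rest in part on weak calls. The interval of this list and that of the serpins (0.743 to 20.2%) overlapped only between 19.8 and 20.2%. An overlap does not show that the 2 shares are alike, and their difference was not tested.

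Membrane and secretory pathway serine proteases had a peak at 4 of 8 genes (50%, interval 15.7 to 84.3%, where length gives 1.92), with 27 tags and a fold enrichment of 7.13 at TMPRSS4, 0.306 kb from the gene. PRSS8, TMPRSS2 and HTRA1 were the others, and HTRA1 had 5 peaks. The kallikreins, serine proteases of skin and glands counted here with the plasma kallikrein gene KLKB1, had a peak at 4 of 16 (25%, interval 7.27 to 52.4%, where length gives 2.26). KLK10 and KLK11 shared the tallest, with 19 tags, about 1 kb from each, and KLK10 had 2 peaks in reach. KLK6 and KLK9 were the others. Lysosomal cysteine proteases had a peak at 3 of 8 (37.5%, interval 8.52 to 75.5%, where length gives 1.34), with 27 tags and a fold enrichment of 8.74 inside CTSH, and with CTSB and CTSL as the others.

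The remaining lists had few peaks. Plasminogen and its activators, receptor and cofactors, the system that SERPINB2 and SERPINF2 restrain, had a peak at 0 of 6 genes (interval 0 to 45.9%), where length gives 1.28. Leukocyte, mast cell and pancreatic serine proteases had 0 of 10 (interval 0 to 30.8%), where length gives 1.17. Blood clotting and complement proteases had 1 of 11 (interval 0.230 to 41.3%), where length gives 2.02, and that peak, 4.17 kb from PROC, had 12 tags.

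**Figure D5:**
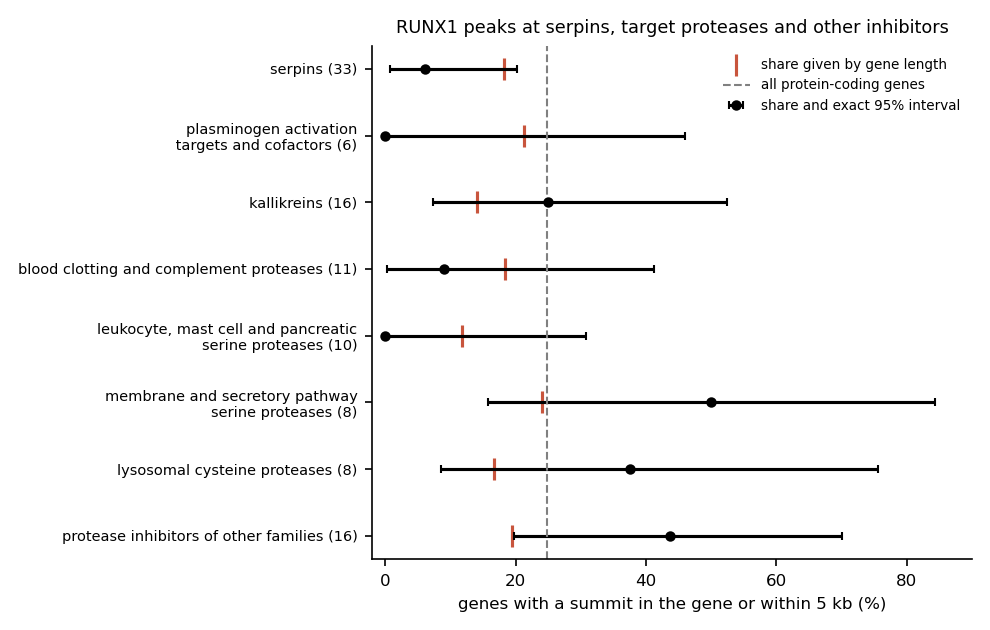
The share of genes with a RUNX1 summit in the gene or within 5 kb (x axis, percent) for the 33 serpins and the 7 lists of proteases and other inhibitors, with exact 95% intervals, the share given by gene length (red marks) and the share of all protein-coding genes (dashed line, 24.8%). Serpins lie at 6.06% and inhibitors of other families at 43.8%, with intervals that overlap only between 19.8% and 20.2%.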

How the data were processed

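RUNX1 ChIPseq was analysed from 1 ChIP and 1 input library, assigned by the antibody in their labels. The authors deposited 1 peak list, made with MACS 2.1.2 at a q limit of 0.05 with an effective genome size of 2.7 Gb. The submitters' processing notes name Bowtie2, with no version, and hg38. Its headers give a tag length of 54 bp and an extension to 74 bp. The pileup column deposited by the authors is a signal that counts extended ChIP tags at a summit. The fold enrichment, also deposited, is a ratio, pileup plus 1 over local background plus 1. The q-value was deposited by the authors as −log10 q. The column of p-values was not used. Positions in the list are the authors' own.

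Gene intervals came from the RefSeq table of GRCh38, the build of the list. A peak was assigned to a gene by its summit, in the gene or within 5 kb (50 kb as the wider reach). The local background was recovered from pileup and fold enrichment and divided by the genome-wide background, 2.20 tags, to give the input level. Numbers given by length are sums of the shares of 10 length bins, described without a test. Intervals are exact 95% binomial, Poisson or conditional binomial intervals. Python 3.11.15 with pandas 2.3.3, numpy 2.4.6, scipy 1.17.1 and matplotlib 3.10.9 was used, and the assignment was checked on made-up peaks.

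Values were given for each serpin with a peak within 5 kb, the highest peak within 50 kb of each run, the 3 serpin peaks with the highest pileup and, per list, the gene with the highest peak. Of the 34 genes, 1 is not reported here, and all serpin counts cover the other 33. Members, lists and this rule were chosen with earlier results of these data known. Windows, gaps, nearest distances and the chromosome 6 run were added after the data were seen, and so were the other genes given with values. The alternatives tried were gene bodies alone, 50 kb, any base of the peak, a fold enrichment of 5 or more, peaks within 1 kb merged, a stricter q limit (0.01), the 200 genes nearest in length, other limits of the runs, and other RUNX letters.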

Additional observations from a re-analysis of the deposited data

How the results depend on the processing

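Of 49 alternatives over 9 results, 33 stayed close to the reported value and 16 moved. Some of the 33 could not move, since a count of 0 stays 0 where a setting only removes peaks or narrows the reach. With a fold enrichment of at least 5, 1 serpin gene (of 1 distinct peak) and 11 list genes had a peak, and length gave 3.48 serpins. The share of all protein-coding genes was then 15.4%. With gene bodies alone, 0 serpin genes, 0 clade B genes and 8 list genes had a peak, with 0 distinct peaks at serpins, and length gave 3.86. With 50 kb on either side, 10 serpin genes, 3 of clade A and 3 of clade B, and 44 list genes had a peak, with 11 distinct peaks at serpins, and length gave 16.5. With TGTGGTT or TGCGGTT, 7 serpin promoters held the letters (25.9%, against 7.28% of all genes). These again count SERPINB3 and SERPINB4 separately. In the 3 settings of the peaks just given, which share genes and peaks, fewer serpins had a peak than length gave.

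The search for RUNX letters under summits was not run, since sequence was read here from promoter windows alone. No single value of the ratio of the chromosome 18 to the chromosome 14 run was given under any setting, because both held under 3 peaks. For ratios of run densities, exact intervals alone were given. No paired analysis was possible because no group had more than 1 library. No peak below 10 tags appeared in the list, but the height that passes the q limit rises with the local background. At 16 tags, −log10 q was 5.62 at an input level of 1.05 (SERPINA1 peak) and 3.05 at 1.67 (SERPINE3 peak). Absence of a peak therefore limits only binding above a height that is not known where no peak gives the input level. Nothing here measures spread between cultures.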
